A study of Canis lupus familiaris with 10 samples.

Results

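The genes described here are ESR1 (ENSCAFG00000000430), which encodes the estrogen receptor alpha, and PRLR (ENSCAFG00000018782), which encodes the prolactin receptor, 2 of the 19856 genes in the count tables. They were chosen by their opposite changes between Pre-ACTH and Post-ACTH samples in these same libraries, so their change is described and not tested. The samples were visceral adipose tissue (VAT) of 5 adult Beagle dogs, called dogs 1 to 5 here, of which dogs 2 and 3 were the 2 females and the other 3 were males. Pre-ACTH samples were taken by laparotomy from untreated dogs, and Post-ACTH samples from the same dogs once they had received tetracosactide for 25 weeks, a synthetic form of ACTH that makes the adrenal glands release cortisol. The drug was given by osmotic pumps changed at intervals of 4 weeks, with a daily dose of 1.3 to 1.95 μg/kg at the start and 6 to 10 μg/kg at the end. Each dog served as its own control and no untreated dogs were followed over the same weeks, so treatment and time cannot be told apart.

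ESR1 is a nuclear receptor: bound by estradiol, it attaches to DNA and recruits coactivators or corepressors to its target genes. In white adipose tissue it is found in adipocytes and their precursors and is known for restraining fat storage in both sexes. PRLR is a class I cytokine receptor in the cell membrane. Prolactin binding activates the kinase JAK2, which phosphorylates STAT5 proteins that then act on transcription. The receptor appears as preadipocytes differentiate. Cortisol itself acts through the glucocorticoid receptor, another nuclear receptor.

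All 10 libraries held between 8728330 and 14867529 counted reads, the smallest being the Pre-ACTH library of dog 3. Values are given as normalized counts, that is reads divided by the library size after TMM scaling (edgeR's correction for library composition) and multiplied by the mean library size. Nothing in the labels says that a sample was split, so each is taken as 1 biopsy of 1 dog.

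ESR1 was lower after treatment in every dog. Before treatment it stood at 9316 normalized counts in dog 1, 5720 in dog 2, 7641 in dog 3, 7534 in dog 4 and 6450 in dog 5. After treatment it stood at 7481, 5169, 5341, 5242 and 4452 in the same order. Dog 1 had the highest value at both times, and its Post-ACTH sample lay above the Pre-ACTH samples of dogs 2 and 5, so the groups overlapped although each dog went down. The group means were 7332 ± 1365 and 5537 ± 1142 normalized counts (SD, n = 5 dogs each). The fitted log2 fold change (log2FC, Post-ACTH over Pre-ACTH), with the dog as a block, was -0.41 (SE 0.09), a level 0.754 times that before treatment. In single dogs the log2 change was -0.32, -0.15, -0.52, -0.52 and -0.54. Dogs 3, 4 and 5 were nearly alike, and dog 2, which had the lowest ESR1 before treatment, showed the smallest change. Of all 13577 genes tested, 13.5% were lower in all 5 dogs.

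PRLR went the other way. Its Pre-ACTH values were 455 normalized counts in dog 1, 639 in dog 2, 811 in dog 3, 378 in dog 4 and 289 in dog 5, and its Post-ACTH values were 1026, 1409, 1846, 1866 and 1633. Every Post-ACTH sample lay above every Pre-ACTH sample, and the lowest of the treated group was 1.26 times the highest of the untreated group. Of all genes tested, 4.3% had groups that did not overlap with Post-ACTH higher, and 13.4% were higher in all 5 dogs. The means were 514 ± 210 and 1556 ± 350 normalized counts (SD, n = 5 dogs each). The fitted log2 fold change was 1.65 (SE 0.23), a level 3.14 times that before treatment, and 0.913% of the genes tested had a larger fold change upwards. The log2 change was 1.17, 1.14 and 1.18 in dogs 1 to 3 and larger in dogs 4 and 5, at 2.30 and 2.49. The plot of normalized counts by dog shows these paths.

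**Figure D1:**
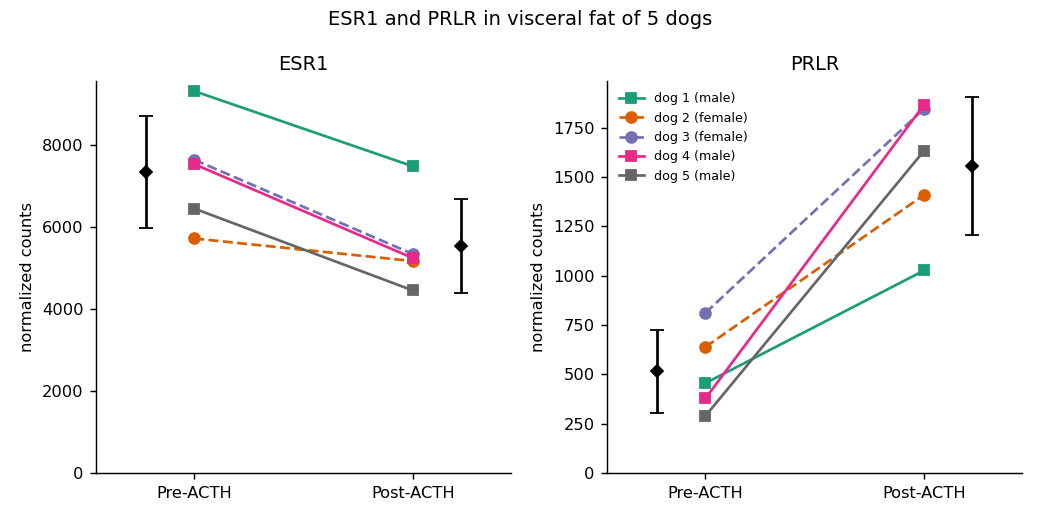
Normalized counts of ESR1 (left) and PRLR (right) in each dog before and after treatment, with both axes starting at 0. Lines join the samples of 1 dog, squares with full lines are males and circles with dashed lines are females, and black diamonds with bars are group means ± SD (n = 5). All 5 ESR1 lines go down with overlapping groups, from a mean of 7332 to 5537, and all 5 PRLR lines go up without overlap, from 514 to 1556.

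Because the members were chosen on this contrast, their calls are given only as a count. In edgeR's quasi-likelihood test over all genes, at a false discovery rate (FDR) under 0.01, 1 of the 2 members was called, PRLR, where 1.97% of all genes were called, 0.751% higher and 1.22% lower in Post-ACTH. At FDR under 0.05 both were called, where 4.84% of all genes were called as higher and 6.28% as lower. The position of ESR1 between the thresholds differed by fit. DESeq2, the tool by which the study had called both genes, placed both under 0.01 among 1180 genes called. The edgeR fit without the dog as a block called 262 genes under 0.01 and left ESR1 above 0.05. Leaving out dog 2, 3, 4 or 5 left neither member under 0.01 and PRLR alone under 0.05. Those fits called 1, 12, 117 and 23 of all genes under 0.01, against 268 with all dogs, so calls were lost among all genes and not only for the members.

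The reads of both genes come from the same library, so their ratio needs no scaling between libraries. It compares reads and not transcripts, since gene lengths of this annotation were not used here, but its change within a dog does not depend on length. Before treatment there were 4.88 PRLR reads per 100 ESR1 reads in dog 1, 11.2 in dog 2, 10.6 in dog 3, 5.02 in dog 4 and 4.48 in dog 5. After treatment there were 13.7, 27.3, 34.6, 35.6 and 36.7. The lowest Post-ACTH ratio, in dog 1, was 1.23 times the highest Pre-ACTH ratio, in dog 2. The group means were 7.23 ± 3.35 and 29.6 ± 9.60 PRLR reads per 100 ESR1 reads (SD, n = 5 each).

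The counting error of these ratios was small beside the differences between the groups, but not always beside those between dogs of a group. PRLR was counted with 326 to 659 reads per Pre-ACTH library and 954 to 2086 per Post-ACTH library, and ESR1 with 4607 to 9459 reads over all libraries. For dog 5 before treatment, which had the lowest ratio, the exact 95% binomial interval (Clopper-Pearson) of PRLR's share of the reads of both genes ran from 3.85% to 4.76%. For the same dog after treatment it ran from 25.8% to 28.0%. In the 2 samples closest across the groups, dog 2 before and dog 1 after treatment, the intervals were 9.33% to 10.8% and 11.4% to 12.8%, which do not meet. Within the groups, the intervals of the 3 Pre-ACTH males overlapped, as did those of the 2 Pre-ACTH females and those of the Post-ACTH samples of dogs 3, 4 and 5. Reads carried no molecular identifiers as far as the sources say, so these intervals cover counting error only.

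**Figure D2:**
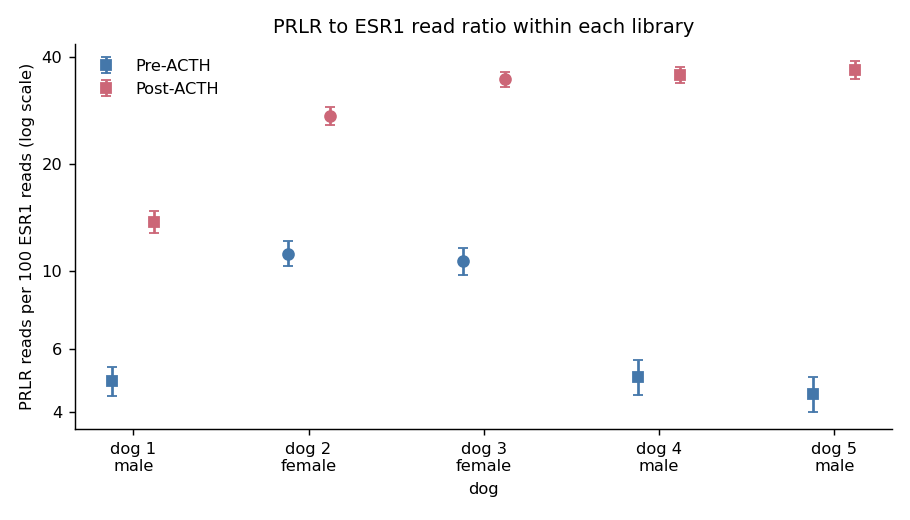
PRLR reads per 100 ESR1 reads in each library on a log axis, Pre-ACTH in blue and Post-ACTH in red, with squares for males and circles for females. Bars are exact 95% binomial intervals for counting error; the 2 females start at 11.2 and 10.6, the 3 males at 4.48 to 5.02, and the treated samples lie between 13.7 and 36.7.

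Within dogs the ratio went up 2.81-fold in dog 1, 2.44-fold in dog 2, 3.26-fold in dog 3, 7.10-fold in dog 4 and 8.19-fold in dog 5, a mean log2 change of 2.07 ± 0.80 (SD, n = 5). On the log2 scale PRLR made up 69.6% to 88.4% of that change, and ESR1 the rest. The largest part of ESR1 was in dog 3 and the smallest in dog 2. With the group medians of the log2 ratio in place of the changes within dogs, the difference was 2.78, since the medians fell on dogs with a low and a high ratio.

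The spread between dogs behaved differently for the 2 genes. For ESR1 the SD of log2 CPM (library-scaled counts) was 0.27 in Pre-ACTH and 0.28 in Post-ACTH, close to the medians of 0.25 and 0.24 over all genes tested, and the highest sample was 1.63 and 1.68 times the lowest. The SD of the change within dogs was 0.17, where independent samples with these SDs would give 0.38, and 21.1% of the genes tested had a smaller SD of change. That rank was not matched for abundance, and only 1.89% of the genes tested had a higher mean count than ESR1. For PRLR the SD was 0.59 in Pre-ACTH and 0.36 in Post-ACTH, and the highest sample was 2.81 times the lowest before and 1.82 times after treatment. The SD of its change was 0.68, close to the 0.69 of independent samples, and 81.7% of the genes had a smaller one. Relative to the mean log2 changes of -0.41 for ESR1 and 1.66 for PRLR, the SDs of change were of similar size. In single dogs the ESR1 change ran from -31.0% to -9.63%. The order of the dogs differed too: dogs 4 and 5 had the lowest PRLR before treatment, and dog 4 had the highest after it.

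**Figure D3:**
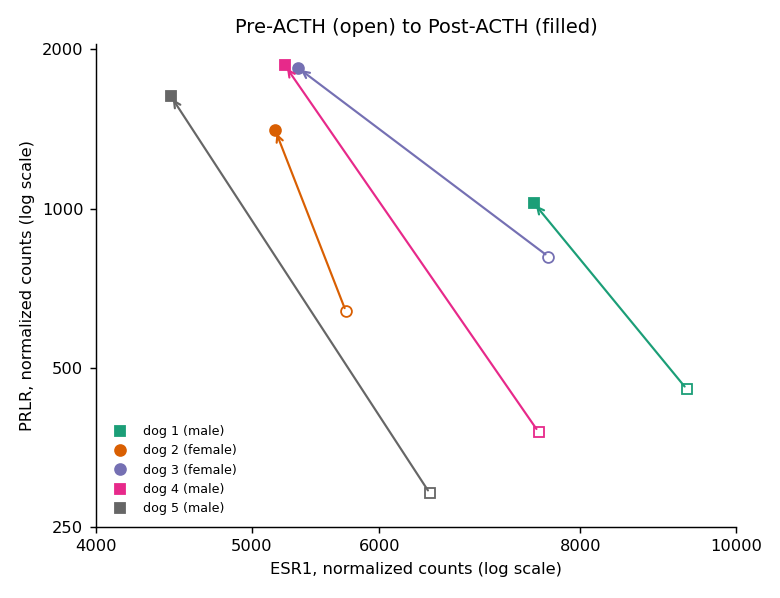
ESR1 (horizontal) against PRLR (vertical) in normalized counts, both on log axes, with an arrow from the Pre-ACTH sample (open) to the Post-ACTH sample (filled) of each dog. All 5 arrows point up and to the left, those of dogs 4 and 5 are the longest in PRLR (log2 changes 2.30 and 2.49), and that of dog 2 is the shortest in ESR1 (-0.15).

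The sex of the dogs was not used in choosing the genes. Before treatment PRLR was higher in both females than in all 3 males, with log2 CPM of 5.63 and 5.97 in the females and 4.49 to 5.14 in the males, a difference of means of 0.97. The log2 ratio of PRLR to ESR1 reads separated the sexes further, from -3.24 to -3.16 in the females and from -4.48 to -4.32 in the males. Each of these 2 measures had an exact permutation p = 0.1 (two-sided), the smallest that 2 against 3 dogs allow, and 0.45 after Benjamini-Hochberg adjustment over the 9 comparisons of the sexes, so the design cannot reach 0.05. The share of all genes tested that separated the sexes in this way was not computed, so PRLR cannot be placed among them. After treatment the sexes overlapped: the females had PRLR log2 CPM of 6.77 and 7.16 and the males 6.31 to 7.17. The PRLR log2 change averaged 1.16 in the females and 1.99 in the males, but dog 1, a male, changed as the females did. ESR1 overlapped between the sexes at both times, with a female minus male difference in log2 CPM of -0.22 before and -0.09 after treatment (two-sided exact permutation p = 0.5 and 0.9). The labels do not say whether the dogs were neutered or, for the females, which stage of the cycle they were in.

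To place both receptors in their pathways, genes that act with them were listed and looked up. The count tables hold Ensembl identifiers, and the symbols came from the study's own table of differentially expressed genes (DEGs), which names 1079 genes. Of 204 listed genes other than the members, 41 had a symbol there. All 41 were therefore selected by the study for changing in these libraries, and neither their direction nor the share called is independent evidence. The study made that table with DESeq2, paired by animal, at FDR under 0.01, so DESeq2 calls among the 41 were largely set in advance. In edgeR's quasi-likelihood test 1.97% of all genes tested passed FDR under 0.01, 0.751% higher and 1.22% lower in Post-ACTH. Of the 41, 10 passed, 5 higher and 5 lower. The median log2 fold change was -0.50, beside -0.002 over all genes tested. The number called fell to 0 without dog 2, 2 without dog 3, 4 without dog 4 and 1 without dog 5. All 41 then still had an unadjusted p under 0.05 in the same test, as had 2951 to 3530 of all genes in those fits. Selection of the 41 as DEGs in these libraries largely set this in advance, so it does not offset the lost calls.

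Downstream of PRLR, 4 of 34 listed genes of the prolactin and growth hormone signalling chain could be followed, and none passed FDR under 0.01 in edgeR. All 4 had an unadjusted p under 0.05 in edgeR's quasi-likelihood test and DESeq2 called 4. Selection as DEGs of the study largely set both in advance. STAT5B, a transcription factor that JAK2 activates, was 3237 ± 246 normalized counts before and 4424 ± 369 after treatment (SD, n = 5; log2FC 0.45, SE 0.08, edgeR adjusted p = 0.0128), and was higher in all 5 dogs without overlap. STAT5A is a close paralog, and how reads shared between such genes were counted is not stated. BCL6, a transcriptional repressor that STAT5 is known to keep down, was lower, with a log2 fold change of -0.79 (SE 0.14, edgeR adjusted p = 0.0165). VAV1, a guanine nucleotide exchange factor that acts in prolactin signalling of lymphoid cells, had a log2 fold change of -1.02 (SE 0.19, edgeR adjusted p = 0.0160). It is a leukocyte gene, and the 6 matched macrophage and leukocyte markers were also lower, with a median log2 fold change of -0.99. These markers were matched only as DEGs of the study, and CPA3 and MS4A2 among them had Post-ACTH means of 0.392 and 1.39 normalized counts. The part of such cells in the lower VAV1 was not tested. IGF1, the growth factor that growth hormone induces through STAT5B, had -0.94 (SE 0.25, edgeR adjusted p = 0.051) and ranged from -1.82 in dog 4 to -0.32 in dog 3. These 4 genes moved in both directions, and BCL6 and IGF1 were named after their values were seen.

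Of 29 other class I cytokine receptors, the family of PRLR, 5 had a symbol, 1 higher and 4 lower. OSMR, the oncostatin M receptor subunit, rose from 810 ± 133 to 1720 ± 275 normalized counts (log2FC 1.09, SE 0.14, edgeR adjusted p = 0.00583), and dog 4 showed its largest change, 1.56, as dogs 4 and 5 did for PRLR. IL27RA, the receptor for interleukin 27, fell by 0.96 on the log2 scale (SE 0.14, edgeR adjusted p = 0.00823). IL11RA and IL2RB, subunits of the receptors for their interleukins, had log2 fold changes of -0.47 and -2.64. IL2RB rested on few reads, with a Post-ACTH mean of 3.66 normalized counts. PRLR and OSMR were thus the members of this family with a symbol that were higher in Post-ACTH.

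On the estrogen side, 6 of 31 listed coregulators had a symbol, and 5 of them were higher. NCOR1, a corepressor that nuclear receptors recruit, was 3644 ± 465 before and 5058 ± 410 after treatment (log2FC 0.48, SE 0.08, edgeR adjusted p = 0.0137). SRA1, which acts as an RNA coactivator of steroid receptors, had 0.61 (SE 0.14, edgeR adjusted p = 0.0364). MED13L, PHB2 and TLE1 had log2 fold changes of 0.49, 0.46 and 0.54. KAT2B, a histone acetyltransferase and coactivator, was the only one of the 6 lower in Post-ACTH and, in edgeR, the only one called at FDR under 0.01, where DESeq2 called all 6. It fell from 4170 ± 338 to 2570 ± 438 normalized counts (log2FC -0.71, SE 0.09, edgeR adjusted p = 0.00633).

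Of 35 genes widely used as readouts of estrogen receptor activity, 10 had a symbol, 5 higher and 5 lower, with a median log2 fold change of -0.07. IRS1, an adaptor of the insulin receptor, rose by 0.68 (SE 0.09, edgeR adjusted p = 0.00626). CXCL12, a chemokine that estradiol induces in breast cancer cells, fell from 529 ± 100 to 139 ± 28.5 normalized counts (log2FC -1.93, SE 0.13, edgeR adjusted p = 0.00199). CXCL12 is also made by fibroblasts, whose markers were lower as given further on, and their part in the lower CXCL12 was not tested. Of 28 enzymes of estrogen and androgen synthesis and clearance, SRD5A2 alone had a symbol. This gene, which encodes a 5-alpha reductase that turns testosterone into dihydrotestosterone, rose from 44.4 ± 20.5 to 156 ± 35.0 normalized counts (log2FC 1.85, SE 0.27, edgeR adjusted p = 0.00941), with the smallest change in dog 2 (1.15) and the largest in dog 3 (2.87).

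Of 40 other nuclear receptors, 4 had a symbol and none passed FDR under 0.01 in edgeR. All 4 had an unadjusted p under 0.05 in edgeR's quasi-likelihood test and DESeq2 called 4, both largely set in advance by their selection. NR3C1, the glucocorticoid receptor, was 3792 ± 255 before and 2743 ± 241 after treatment (log2FC -0.47, SE 0.09, edgeR adjusted p = 0.0186), a log2 fold change near that of ESR1. Its smallest change was in dog 1 (-0.20), whereas that of ESR1 was in dog 2. NR3C2, the mineralocorticoid receptor, had -0.67, and NR1D2, a repressor of the circadian clock, had -0.36 (SE 0.07, edgeR adjusted p = 0.0167). RXRA, which pairs with many other nuclear receptors, went the other way at 0.44 (SE 0.10, edgeR adjusted p = 0.0281). The 3 receptors lower beside ESR1 and the higher RXRA are all DEGs of the study, and no count of nuclear receptors that did not change can be given.

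**Figure D4:**
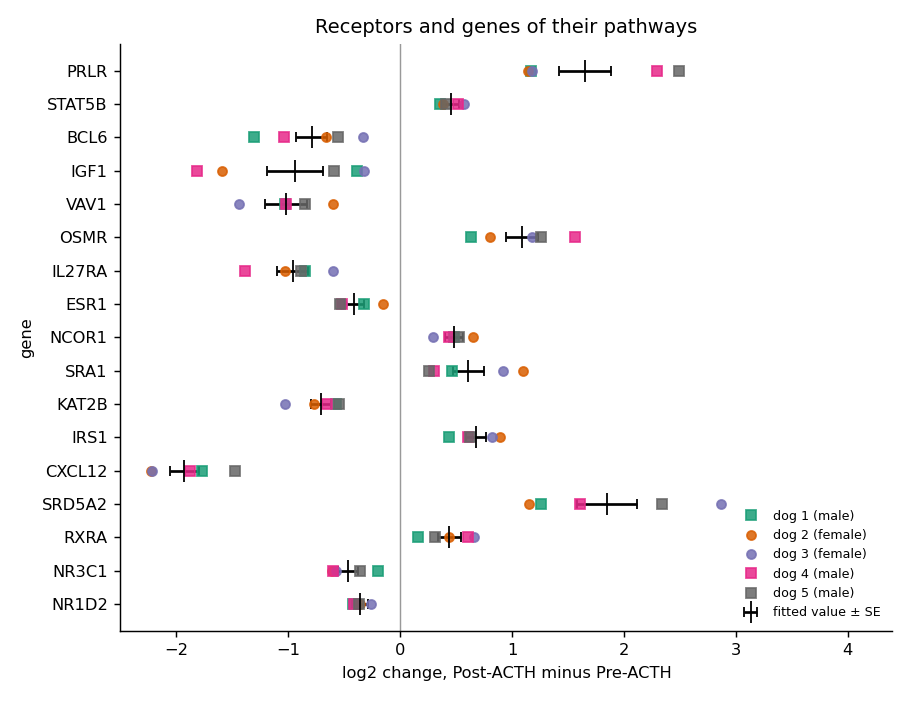
Log2 change from Pre-ACTH to Post-ACTH of both receptors and of named genes of their pathways. Symbols are single dogs (squares males, circles females), and black marks with bars are the fitted value ± SE. PRLR (1.65) spans the dogs from 1.14 to 2.49, while ESR1 (-0.41), STAT5B (0.45) and NR1D2 (-0.36) lie in narrow ranges.

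The study lists representative genes of an estrogen receptor signaling pathway, chosen among its DEGs, and 17 of them other than ESR1 were matched. Of these, 11 were lower and 6 higher in Post-ACTH, with a median log2FC of -0.71. At FDR under 0.01 in edgeR's quasi-likelihood test 4 were called, where 1.97% of all genes tested were called. AGT, the precursor of angiotensin, fell by 2.43 on the log2 scale (SE 0.20, adjusted p = 0.00213), and PDGFC, a growth factor of mesenchymal cells, by 0.50 (SE 0.07, adjusted p = 0.00952). PLCD4, a phospholipase C, rose by 2.12 (SE 0.18, adjusted p = 0.00241) and EIF4EBP1, an inhibitor of translation initiation, by 1.12 (SE 0.17, adjusted p = 0.00952). Most of the 17 genes act in G protein and growth factor signalling, and a place in this pathway does not make a gene a direct target of the receptor. FOS and IGF1 among them were also on the list of estrogen readouts.

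The genes whose level followed each receptor most closely were sought by Pearson's r of log2 CPM over the 10 samples, as a description, since all 10 share the division into Pre-ACTH and Post-ACTH. For ESR1 the closest of all genes tested was SLC4A4, a sodium bicarbonate cotransporter (r = 0.938, and 0.89 after the group means were removed). It fell from 1529 ± 418 to 856 ± 387 normalized counts (log2FC -0.89, SE 0.11, edgeR adjusted p = 0.00497; 0.0836 in the fit without the dog as a block). Next among genes with a symbol came MARC1 (0.910), ARHGAP28 (0.888), PARP15 (0.885) and CDNF (0.878), with 11 genes without a symbol ranked before the last. Their r after removing the group means was 0.81 to 0.85. These genes were picked for the highest r in the same samples, which also raises the r within groups.

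For PRLR the closest gene of all was IGFBP2, a binding protein of insulin-like growth factors (r = 0.968, and 0.85 without the group means). Its log2 change was 3.68, 5.53, 3.58, 9.47 and 8.47 in dogs 1 to 5, so that dogs 4 and 5 again stood highest, and its fitted log2 fold change was 5.80 (SE 0.99, edgeR adjusted p = 0.0137). IGFBP2 was low and uneven before treatment, at 274 ± 287 normalized counts with a lowest value of 18.6, and 11780 ± 7319 after it (SD, n = 5). Changes from so low a start are uncertain in size. RPS16 (0.963), RPS9 (0.961), EIF4B (0.957) and RPL28 (0.956) followed, which encode ribosomal proteins and a translation initiation factor. Their own log2 fold changes were 0.45, 0.57, 0.41 and 0.48, smaller than that of PRLR, and their r without the group means was 0.78 to 0.82. Reads of ribosomal protein genes may be shared with near-identical copies.

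VAT holds several cell types, and in bulk RNA fewer cells of a type and less RNA per cell cannot be told apart. Of the marker lists, only genes of the study's DEG table could be matched. For adipocytes this was 1 of 15, LIPE, hormone-sensitive lipase, at 19600 to 25070 normalized counts in Pre-ACTH and 27700 to 33580 in Post-ACTH. The defining markers ADIPOQ, LEP and PLIN1 had no symbol, so the labelled tissue was checked by LIPE alone. Progenitor and fibroblast markers, 12 of 15 matched and all lower, had COL3A1 and DCN as the most abundant. They summed to 22120 to 48140 normalized counts before and 8040 to 12990 after treatment. The log2 change of this sum was -1.89, -1.83, -1.43, -1.50 and -1.16 in dogs 1 to 5. Macrophage and leukocyte markers, 6 of 14, with CSF1R and LYZ the most abundant, went from 1636 to 3160 down to 748 to 1573. For blood vessel endothelium 1 of 12 was matched, CLEC14A, at 306 to 480 before and 184 to 334 after treatment. Over dogs 1 to 5 its log2 change was -0.32, -0.60, -0.88, -0.74 and -0.52, and that of the macrophage and leukocyte sum -0.77, -0.65, -1.14, -1.53 and -0.18. The part of these shifts in the lower ESR1 was not tested.

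On the side of PRLR, 3 of 14 mesothelial and epithelial markers were matched. CLDN4, EPCAM and CLDN15 summed to 533 to 1120 normalized counts in Pre-ACTH and 965 to 1650 in Post-ACTH, and were higher in all 5 dogs. The log2 change of their sum was 0.86, 1.13, 0.44, 0.61 and 0.25 in dogs 1 to 5. Smooth and skeletal muscle markers, 6 of 12 matched, had MYLK and MYH11 as the most abundant and were 4 higher and 2 lower. They summed to 2638 to 4308 before and 5467 to 6752 after treatment, and the log2 change of this sum was 1.18, 0.50, 0.93, 0.64 and 0.48 in dogs 1 to 5. CKM rose most, from a mean of 103 to 1115 normalized counts (log2FC 3.58), while NOTCH3 (-0.67) and TTN (-2.07) were the 2 lower, so the sum hides mixed directions. The part of these lists in the higher PRLR was not tested. Each matched marker had reads in at least 1 library.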

How the data were processed

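The authors sequenced RNA of 10 VAT samples, and after trimming used STAR for alignment to CanFam3.1 and featureCounts for counts per Ensembl gene. They deposited raw counts, 1 table per library, without normalization. The tool versions, annotation release, strand setting and handling of multi-mapping reads are not given in the sources used here. The labels name a stranded kit with single-end reads, while the paper names another kit and read length. In the RefSeq table of the assembly UU_Cfam_GSD_1.0, 2 long non-coding RNA genes overlap ESR1 and 1 protein-coding gene overlaps PRLR, so reads of these could be mixed if strand was ignored.

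The counts were analysed in R 4.3.3 with edgeR 4.0.16 (TMM, glmQLFit, glmQLFTest, dog as a block) over 13577 genes that reached 10 reads in 1 sample or more, with Benjamini-Hochberg adjustment and FDR under 0.01. SEs were derived from the fold change and F statistic. Values of single dogs use log2 CPM (prior count 2). The pairing comes from the animal IDs: deviations from the group means correlated at 0.0772 to 0.412 within dogs and -0.0678 on average between dogs. No libraries were duplicates (lowest chi-square per degree of freedom 18.1). The fits were tested on simulated data. Alternatives were DESeq2 1.42.0, limma-voom (limma 3.58.1), other scalings and filters, no block and each dog left out; fits within each sex were chosen after seeing the data.

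The members, gene lists and markers were chosen with earlier results of these data known. Symbols came from the study's DEG table; its fold changes and p-values were not used. Named genes were listed genes at FDR under 0.01 (at most 4 per direction and list, otherwise the 2 with the lowest p), 5 fixed partners (NR3C1, STAT5B, RXRA, NCOR1, SRA1), the 5 named genes most like each receptor and the 2 most abundant matched markers per list. IL11RA, IL2RB, MED13L, PHB2, TLE1, NR3C2, BCL6, IGF1 and CLDN15 were added as the remaining members of short lists after their values were seen. CKM, NOTCH3 and TTN of the muscle markers were also named after their values were seen. For 1 listed gene the values are not reported here.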

Additional observations from a re-analysis of the deposited data

How the results depend on the processing

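ESR1 stayed lower and PRLR higher under every alternative run, from -0.47 to -0.34 and from 1.16 to 2.01 on the log2 scale, the PRLR extremes being the fits to females alone and males alone. Without dog 2 to 5 in turn neither was under FDR 0.01, in fits that called 1, 12, 117 and 23 of all genes. The ratio change was 1.83 to 2.26 with each dog left out, 2.08 from group sums, and 2.45 in males and 1.5 in females. The female minus male difference of PRLR before treatment was 0.79 to 1.14 with each dog left out, and that of ESR1 -0.42 to -0.01.

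Counts of calls depended on the tool and the dogs. DESeq2 called 1180 genes and 40 of the 41 listed genes, against 268 and 10 in edgeR, and edgeR without a filter called 438 genes. The listed and named genes had been chosen by the study's own DESeq2 calls, so the DESeq2 counts for them were largely set in advance. In edgeR with each dog left out, 1 (without dog 2) to 318 (without dog 1) genes and 0 (without dog 2) to 10 listed genes were called. The causes of the other differences between fits were not tested. Without the replicate block 262 genes and 11 listed genes were called. Of 35 named genes of the pathway and likeness lists, none turned direction in the 420 values computed; marker genes were not included. In edgeR 12 of the 35 were under FDR 0.01, and of these 12 calls all were lost without dog 2, 10 without dog 3, 8 without dog 4 and 11 without dog 5, while DESeq2 added 22. Depth limits IL2RB, which had few reads.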
